A study of Homo sapiens with 3 samples.

Results

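The genes described here are those of cholesterol and fatty acid synthesis in CAL 27, a cell line from a poorly differentiated squamous cell carcinoma of the tongue. They were taken as 33 listed enzymes and regulators of the mevalonate and sterol pathway, the SREBP system, fatty acid synthesis and desaturation. Of these, 29 had a probe set annotated to that gene alone, among 11963 genes with such a probe set. FDFT1, CYP51A1, FADS1 and ACSL3 were not analysed here. Transcripts were measured once, on 1 Affymetrix array per group, in cells stably transfected with the EGFP vector pEGFPC1, with that vector carrying nm23-H1, or with that vector carrying nm23-H2. All 3 groups therefore carried the EGFP plasmid, and all were grown in Dulbecco's modified Eagle medium with 10% fetal bovine serum, which supplies lipids. The transfected genes, NME1 (nm23-H1) and NME2 (nm23-H2), encode kinases that pass phosphate between nucleotides. The series' design text speaks of clones expressing EGFP-Nm23-H1 and of a vector-carrying clone, and it does not mention the nm23-H2 cells. With 1 array per group no difference had a replicate check, no test across samples was possible, and construct, clone and array cannot be told apart.

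Cells make cholesterol from acetyl-CoA through mevalonate and squalene, and make fatty acids from acetyl-CoA through malonyl-CoA. Both pathways are switched on by the SREBP transcription factors, which are held in the endoplasmic reticulum as precursors bound to SCAP. When sterols are plentiful, INSIG proteins retain the SCAP-SREBP complex there, and when sterols fall the complex leaves and SREBP is cut free to enter the nucleus. SREBP-1, from SREBF1, is known mainly for fatty acid genes and SREBP-2, from SREBF2, mainly for sterol genes, and both bind promoters together with the factors NF-Y and Sp1.

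The array labels were checked first. The NME1 probe set gave 2379, 1132 and 1519 signal units on the nm23-H1, nm23-H2 and vector arrays, and NME2's, which also reads NME1-NME2 read-through RNA, gave 2323, 4845 and 2272. Signals here are the deposited values after each array was scaled to a common trimmed mean, and values below 28.3 units, the median of all scaled values, were set to that floor. All 6 squamous epithelial markers with a probe set (KRT5, KRT14, SFN, PKP1, DSG3 and DSP) were above the floor on each array, with summed signals of 25580, 40297 and 29886. This sum, carried by KRT5, KRT14 and SFN, was highest with nm23-H2, while PKP1 was 1.66-fold lower there than with vector (439 against 728 units), and their part in the results below for that array was not tested. Of 6 fibroblast, 4 leukocyte and 4 endothelial markers, at most 1, 2 and 1 were above the floor on any array by the probe set used. These were COL1A2 (39.0 and 31.7 units with nm23-H1 and nm23-H2), CD14 (50.1 with nm23-H1), CD3D (34.0 and 49.7 with nm23-H1 and vector) and PECAM1 (43.6 and 35.3 with nm23-H1 and vector). The other markers, among them COL3A1, PTPRC and CDH5, were below the floor on all 3 arrays by that probe set. A further COL1A1 probe set of the cross-hybridising _x_at class read 168, 152 and 123 units. Further DCN probe sets of that class read between 41.2 and 54.7 units. The error of 1 probe set was taken from the gap between the log2 differences of a gene's 2 brightest probe sets. It is the SD of that gap over genes, divided by the square root of 2. It was 0.32 for nm23-H1 minus vector, 0.35 for nm23-H2 minus vector and 0.39 for nm23-H1 minus nm23-H2. This is the only error the arrays allow, and it does not cover cultures, clones or hybridisations.

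The nm23-H2 array stood lower than the vector array for most of the listed genes, while the nm23-H1 array lay close to the vector in their median. Of the 29 genes, 27 exceeded the floor somewhere and count as measured, and HMGCS1 and MVD were below it on all 3. With nm23-H2, 6 of the 27 were at least 2-fold lower than with vector and 0 at least 2-fold higher, against 3.62% lower and 3.54% higher among all 8000 measured genes. The 6 were SREBF1, INSIG1, SCD, SC5D, TM7SF2 and DHCR7. The median log2 difference was -0.45 over the 27 and -0.06 over the 8000, with 22 of the 27 below 0 and 5 above, against 54.5% and 40% of all genes. With nm23-H1, 1 of the 27 (SC5D) was at least 2-fold lower than with vector and 0 higher, against 1.71% lower and 2.16% higher among all genes, and the median was 0.05. Here 12 of the 27 were below 0 and 15 above, against 47.8% and 49.5% of all genes. The comparisons with vector share the vector array, so they are given side by side and were not correlated. The listed genes were chosen with earlier results of these data known, so their shares and medians beside all genes are descriptions and not tests.

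Which probe sets and which scaling were used bore on the count with nm23-H2. On the deposited scale, without scaling the arrays, 5 genes passed 2-fold downwards (DHCR7 no longer did) and 1 (SCAP) upwards. Of all genes, 1.36% did so downwards and 7.92% upwards, and the all-gene median moved from -0.06 to 0.17. With probe sets specific by name, those ending in plain _at, 16 of the genes were measured and 1 of them (SREBF1) was at least 2-fold lower, against 3.42% of all genes. SCD, TM7SF2 and DHCR7 have no such probe set, and that of SC5D was below the floor on all 3 arrays. That of INSIG1 was below the floor with nm23-H2 and at least 1.98-fold lower than vector. INSIG2 and FADS2 were above the floor on some of the arrays only and so had to be lower elsewhere. Over the 25 genes above the floor on both the nm23-H2 and vector arrays, 6 were at least 2-fold lower and the median was again -0.45. Among all genes above the floor on both, 3.32% were at least 2-fold lower.

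**Figure D1:**
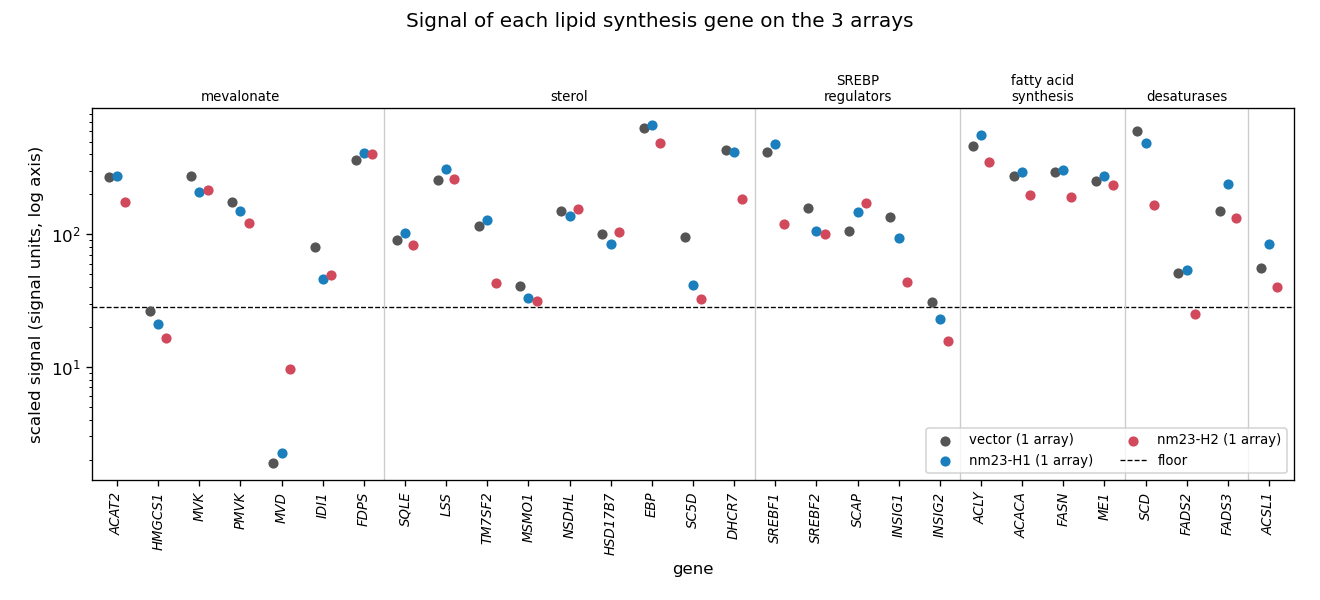
Scaled signal in signal units (log axis) of the 29 genes on the vector, nm23-H1 and nm23-H2 arrays, 1 point per array and no replicates, with the floor of 28.3 as a dashed line and the genes in order of their role. With points below the floor counted as equal, nm23-H2 is the lowest of the 3 for 19 of the 27 measured genes, and SREBF1, SCD, INSIG1, TM7SF2 and DHCR7 stand at least 2-fold below both other arrays.

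The promoters of 5 of these genes are shown because they hold, or lack, the letters that the pathway's factors are known for, and because 4 of the 5 (all but SREBF2) belong to genes at least 2-fold lower with nm23-H2. Each is RefSeq sequence of build GRCh38.p14, from 250 bases before to 50 after an annotated start, written 5′ to 3′ along the gene. SREBF1 is at chr17:17836937-17837236 (minus strand), SREBF2 at chr22:41832855-41833154, INSIG1 at chr7:155297628-155297927, SCD at chr10:100346983-100347282 and TM7SF2 at chr11:65111622-65111921 (all plus strand). Capitals mark, on either strand, a sterol regulatory element (TCACNCCAC), an NF-Y box (CCAAT), a GC box of the kind Sp1 binds (GGGCGG) and an E-box (CACGTG).
SREBF1: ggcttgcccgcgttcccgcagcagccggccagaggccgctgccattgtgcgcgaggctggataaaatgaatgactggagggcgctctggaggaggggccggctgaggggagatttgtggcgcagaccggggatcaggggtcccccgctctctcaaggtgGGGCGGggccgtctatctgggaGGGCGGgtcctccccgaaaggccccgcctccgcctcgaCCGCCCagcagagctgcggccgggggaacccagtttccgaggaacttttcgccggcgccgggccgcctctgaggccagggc
SREBF2: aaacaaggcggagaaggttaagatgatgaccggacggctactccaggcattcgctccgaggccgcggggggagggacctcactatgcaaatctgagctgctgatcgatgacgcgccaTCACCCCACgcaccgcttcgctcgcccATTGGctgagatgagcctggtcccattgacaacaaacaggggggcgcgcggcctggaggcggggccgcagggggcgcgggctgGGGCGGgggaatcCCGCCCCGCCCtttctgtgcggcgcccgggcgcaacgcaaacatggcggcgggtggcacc
INSIG1: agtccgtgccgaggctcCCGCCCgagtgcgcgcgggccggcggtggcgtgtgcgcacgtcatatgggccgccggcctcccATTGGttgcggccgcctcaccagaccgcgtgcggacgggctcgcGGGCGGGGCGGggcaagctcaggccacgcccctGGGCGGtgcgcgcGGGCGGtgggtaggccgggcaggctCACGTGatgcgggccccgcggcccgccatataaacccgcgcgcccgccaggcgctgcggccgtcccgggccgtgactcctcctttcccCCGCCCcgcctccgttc
SCD: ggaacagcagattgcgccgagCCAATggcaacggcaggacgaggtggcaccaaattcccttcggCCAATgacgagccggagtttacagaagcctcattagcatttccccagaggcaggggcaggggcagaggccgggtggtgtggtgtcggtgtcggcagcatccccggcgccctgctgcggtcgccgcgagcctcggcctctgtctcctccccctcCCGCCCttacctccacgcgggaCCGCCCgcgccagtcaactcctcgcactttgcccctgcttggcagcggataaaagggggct
TM7SF2: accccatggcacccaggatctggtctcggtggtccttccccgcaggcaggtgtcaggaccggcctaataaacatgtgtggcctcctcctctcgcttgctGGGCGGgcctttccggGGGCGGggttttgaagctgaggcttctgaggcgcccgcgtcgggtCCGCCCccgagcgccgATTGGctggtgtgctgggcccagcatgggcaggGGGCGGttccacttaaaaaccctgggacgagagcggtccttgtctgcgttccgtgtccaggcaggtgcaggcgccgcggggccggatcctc
The SREBF2 window holds 1 full sterol regulatory element and, after it, an NF-Y box. The SCD window holds 2 NF-Y boxes and 2 GC boxes, and the SREBF1 window holds GC boxes alone among these motifs.

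Over the genes as a whole, 26 of the 29 had a promoter in the table, and ACAT2, SQLE and FASN had none there. A gene was counted when any of its windows held the motif, and matches of GC boxes may overlap each other. An NF-Y box was present for 21 of the 26 genes (80.8%), against 44.2% of the 6593 measured genes with a promoter and 39.7% of all 27305 genes in the table. By window, the shares were 62.5% of 40, 35.1% of 9825 and 34.6% of 35116. A GC box was present for 25 of the 26 (96.2%), against 75.0% of measured genes, in windows whose median GC content was 68.2% against 64.3%. The full sterol regulatory element was found for SREBF2 and ACSL1 alone (7.69%, against 1.52% of measured genes). Its shorter core CACNCCA, which lies within it, was found for 14 (53.8%, against 22.0%). The E-box was found for 4 (15.4%, against 13.0%). Genes at least 2-fold lower with nm23-H2 held an NF-Y box in 5 of 6 cases and the other measured genes in 14 of 18. A match is a description of these letters in this window and not of a factor bound there.

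**Figure D2:**
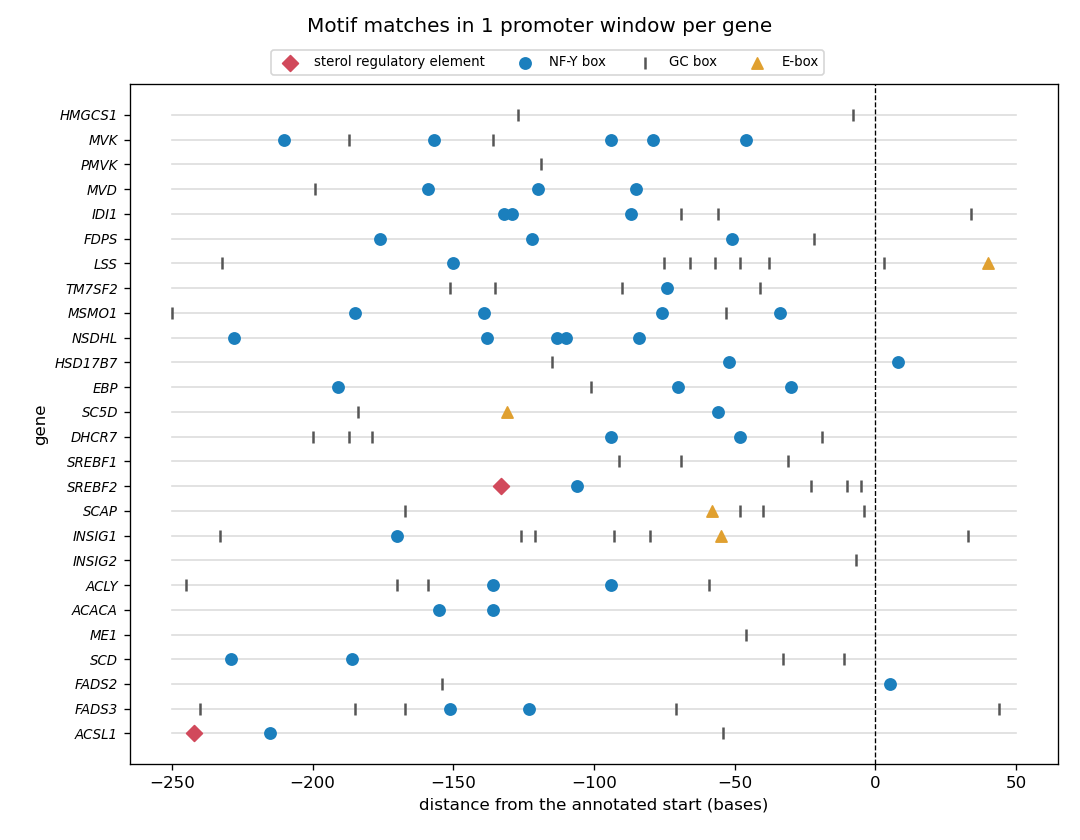
Positions of the 4 motifs in 1 promoter window of each of 26 genes (where a gene has several, the one with the lowest coordinate among those with a match), as distance in bases from the annotated start (dashed line), on either strand. NF-Y boxes (circles) recur along most rows, while full sterol regulatory elements (diamonds) lie in SREBF2 and ACSL1 only.

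Among the regulators, SREBF1 and INSIG1 were far lower on the nm23-H2 array, and SCAP was higher on both nm23 arrays. SREBF1 (chr17:17811334-17836986), which encodes SREBP-1, gave 478.5 units with nm23-H1, 119 with nm23-H2 and 416 with vector. The nm23-H2 array was thus low and the other two were close, with nm23-H2 3.51-fold below vector (log2 -1.81) and 4.04-fold below nm23-H1. SREBF1 had 1 probe set, and its difference was between -1.90 and -1.48 under 10 alternative settings.

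INSIG1 (chr7:155297878-155310235), the sterol-dependent anchor of SCAP and itself a classical SREBP target, gave 93.0, 43.7 and 135 units on the nm23-H1, nm23-H2 and vector arrays. The nm23-H2 value was 3.08-fold below vector. The 2 further probe sets of INSIG1 were below the floor with nm23-H2 and at least 2.17-fold and at least 1.98-fold lower than vector. For nm23-H1 they went against the first: that one was 0.53 below vector on the log2 scale and the others 0.49 and 0.45 above it. So all 3 probe sets placed nm23-H2 lowest, and they did not settle the order of nm23-H1 and vector. INSIG1's 23 measured neighbours had a median of -0.28 for nm23-H2 minus vector, a smaller shift in the same direction, and their part in the result was not tested. INSIG2, the second anchor gene, was above the floor on the vector array alone (31.1 units) and barely so.

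SREBF2 (chr22:41833105-41907305), which encodes SREBP-2, gave 106, 100.4 and 156 units, below vector on both nm23 arrays but by less than 2-fold (log2 -0.56 with nm23-H1 and -0.64 with nm23-H2). Its second probe set gave -0.71 and -0.60. The 40 measured neighbours of SREBF2 on chromosome 22 had a median of -0.47 for nm23-H1 minus vector and -0.04 for nm23-H2 minus vector. The nm23-H1 value therefore lay near that of its neighbours and the nm23-H2 value did not, and the neighbours' part was not tested. SCAP, the escort protein of SREBP, ran the other way with 148, 171 and 106 units, which was 1.39-fold and 1.61-fold above vector. On these scaled values, SREBF1 was more than 2-fold lower with nm23-H2 than on both other arrays. SREBF2 and SCAP differed from vector on both nm23 arrays, each by less than 2-fold.

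Of the 27 genes, the largest difference between nm23-H2 and vector was in SCD, a desaturase. SCD (chr10:100347233-100364826), stearoyl-CoA desaturase, which makes oleic acid from stearic acid, gave 486 units with nm23-H1, 166 with nm23-H2 and 598 with vector. The nm23-H2 array was low, 3.60-fold below vector and 2.93-fold below nm23-H1, and nm23-H1 was 1.23-fold below vector. The 3 further probe sets of SCD were lower still with nm23-H2. One gave 546, 123 and 673 units, 5.48-fold below vector, and the others, below the floor on the nm23-H2 array alone, were at least 6.08-fold and at least 5.41-fold below vector. All 4 probe sets thus agreed on the order of the arrays, and all 9 alternatives in which SCD had a value left it at least 2-fold lower. Among these, the other floors, the 1.5-fold threshold and the limit to genes above the floor on both arrays left its value unchanged. FADS2, the delta-6 desaturase of polyunsaturated fatty acids, gave 53.6 and 51.3 units with nm23-H1 and vector and fell below the floor with nm23-H2 (25.1), at least 1.81-fold lower. FADS3, its neighbour on chromosome 11, gave 239, 133 and 150 units. FADS3 was highest with nm23-H1, 1.60-fold above vector by this probe set and 1.72-fold by its other one, and close to vector with nm23-H2.

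Of the 4 genes of fatty acid synthesis, none reached 2-fold by the probe set used. FASN, fatty acid synthase, gave 303, 191 and 293 units on the nm23-H1, nm23-H2 and vector arrays, so that nm23-H2 was 1.54-fold below vector. ACACA, acetyl-CoA carboxylase, which makes malonyl-CoA, gave 294, 199 and 276 units, 1.39-fold lower with nm23-H2. A dimmer probe set of ACACA went the other way, with 67.8, 76.9 and 40.5 units, so the direction of ACACA is uncertain. ACLY, ATP-citrate lyase, which supplies cytosolic acetyl-CoA, was 1.31-fold lower with nm23-H2 and 1.23-fold higher with nm23-H1, and its 3 probe sets gave those directions alike. ME1, malic enzyme, a source of NADPH, was within 1.10-fold of vector on both nm23 arrays. The median of these 4 genes was 0.11 for nm23-H1 minus vector and -0.43 for nm23-H2 minus vector. On the deposited scale ME1 turned above vector with nm23-H2 (0.25), as did FADS3 (0.16) and SQLE (0.20).

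ACSL1, which activates long-chain fatty acids by joining them to coenzyme A, gave 84.1 units with nm23-H1, 40.3 with nm23-H2 and 55.2 with vector. It lay above vector on one nm23 array and below it on the other, so that it passed 2-fold between the nm23 arrays alone (2.08-fold). Its second probe set gave 1.87-fold, and the 2-fold difference was lost under 6 of 10 alternatives.

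**Figure D3:**
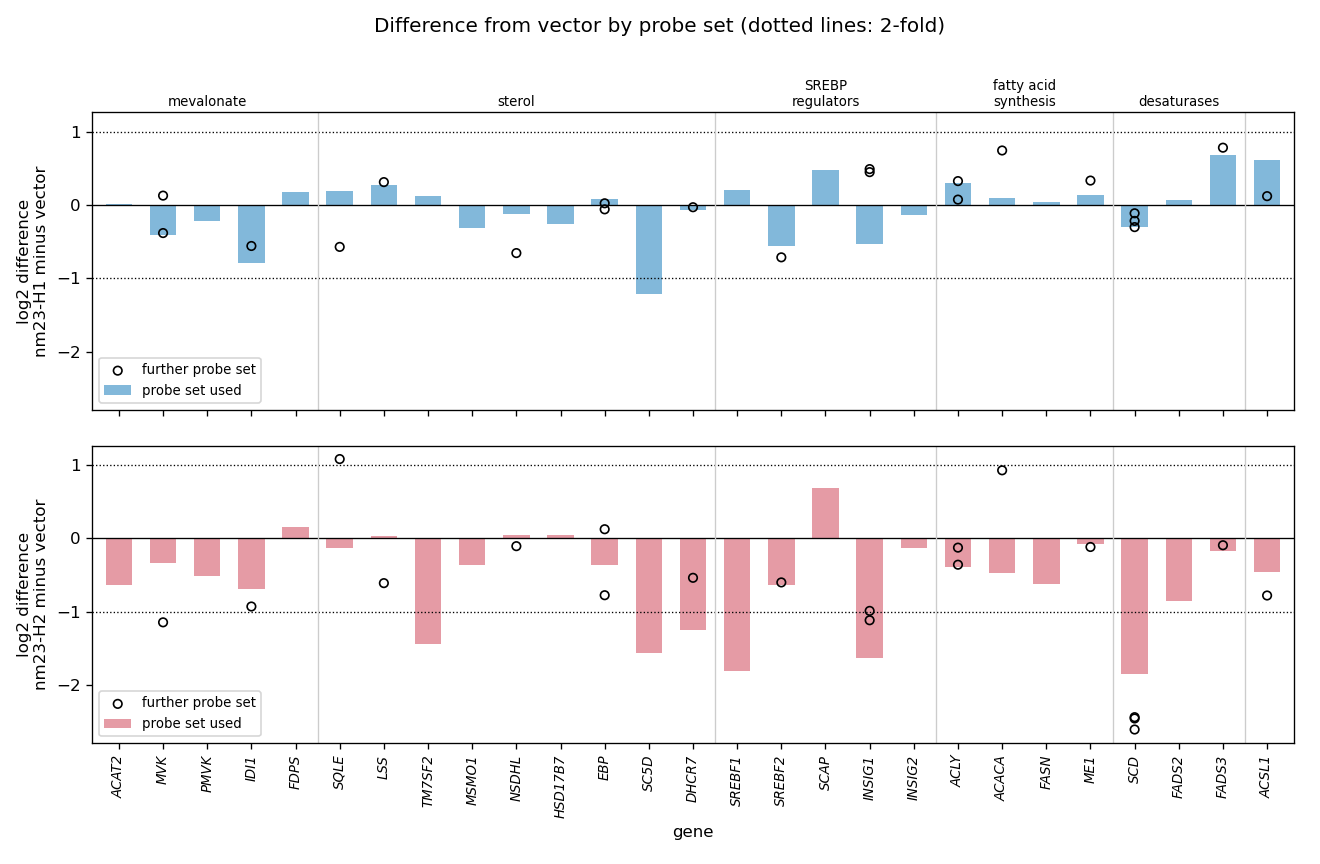
Log2 difference from vector of each of the 27 genes above the floor, for nm23-H1 (upper panel) and nm23-H2 (lower panel), with 1 array per group. Bars are the probe set used and open circles the further probe sets above the floor on at least 1 of the 2 arrays, and dotted lines mark 2-fold. In the lower panel all probe sets of SCD and INSIG1 are near or below the lower dotted line, while those of SQLE and ACACA lie on both sides of 0.

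Along the sterol branch the low values with nm23-H2 were at some of the measured enzymes and not at all of them. DHCR7 (chr11:71427287-71449043), which completes cholesterol by reducing 7-dehydrocholesterol, gave 415 units with nm23-H1, 183 with nm23-H2 and 435 with vector. The nm23-H2 value was 2.38-fold below vector, and the nm23-H1 value was 1.05-fold below it, turning above it on the deposited scale (0.04). Its second probe set gave 337, 237 and 344 units, the same order but 1.45-fold, and the mean of both was under 2-fold (log2 -0.89). TM7SF2 (chr11:65111872-65116230), a sterol delta-14 reductase, gave 127, 42.8 and 116 units, 2.72-fold below vector with nm23-H2 by its only probe set. The nm23-H2 array was again low and the other two close.

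SC5D (chr11:121292771-121313410), the lathosterol oxidase that makes 7-dehydrocholesterol, was low on both nm23 arrays, with 41.5, 32.5 and 96.0 units. The nm23-H1 value was 2.31-fold and the nm23-H2 value 2.95-fold below vector. Its second probe set was below the floor on all 3 arrays. Both SC5D differences were under 2-fold (-0.53 each) when the floor was raised to the 70th percentile, and under 2-fold when both probe sets were averaged (-0.60 and -0.78). The nm23-H1 difference was also under 2-fold with 16 added in place of the floor (-0.96). The 32 measured neighbours of SC5D had medians of 0.22 and 0.04, so the neighbourhood did not share the direction.

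By the probe set used, the other 6 measured sterol enzymes were within 2-fold of vector on both nm23 arrays. EBP, the delta-8,7 isomerase, gave 668, 490 and 628 units, 1.28-fold lower with nm23-H2. Its other probe sets were 1.09-fold higher and 1.71-fold lower. MSMO1, the C-4 methyl sterol oxidase, was near the floor, with 32.8, 31.6 and 40.6 units. SQLE, squalene epoxidase, an entry step of the branch, differed by -0.13 (log2) between nm23-H2 and vector by its brightest probe set and by 1.08 by another, so the direction of SQLE is uncertain. LSS, the cyclase that closes the sterol ring, was 1.02-fold higher with nm23-H2 by its brightest probe set. A dimmer probe set of LSS, below the floor with nm23-H2, was at least 1.53-fold lower, so the direction of LSS is uncertain. NSDHL and HSD17B7, enzymes of C-4 demethylation, were each 1.03-fold higher, and HSD17B7 was read by a probe set of the _x_at class, which may cross-hybridise. A further probe set of NSDHL was 1.08-fold lower. LSS, NSDHL and HSD17B7 turned slightly below vector with nm23-H2 when the arrays were given a common median (-0.06, -0.04 and -0.04).

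By the probe sets used, none of the 5 measured mevalonate enzymes reached 2-fold, and their median was -0.22 for nm23-H1 minus vector and -0.52 for nm23-H2 minus vector. IDI1, isopentenyl-diphosphate isomerase, gave 46.0, 49.2 and 79.7 units on the nm23-H1, nm23-H2 and vector arrays, 1.73-fold and 1.62-fold below vector. Its second probe set gave 1.47-fold and 1.90-fold, and both are of the _x_at class. ACAT2, the thiolase that makes acetoacetyl-CoA, gave 273, 174 and 271 units, so the nm23-H2 array was low by 1.55-fold and the other two were alike. MVK and PMVK, the kinases of mevalonate and phosphomevalonate, were 1.27-fold and 1.43-fold lower with nm23-H2 and 1.32-fold and 1.17-fold lower with nm23-H1. A dimmer probe set of MVK was at least 2.21-fold lower with nm23-H2. FDPS, farnesyl diphosphate synthase, was highest on the nm23 arrays, 1.13-fold and 1.11-fold above vector. HMGCS1, the cytosolic HMG-CoA synthase, lay below the floor by both of its probe sets, at 20.9, 16.6 and 26.6 units by the brighter one.

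Set against each other, the nm23 arrays differed most in SREBF1, and 5 of the 6 genes low with nm23-H2 against vector, all but SC5D, also passed 2-fold here. With nm23-H1, 6 of the 27 genes were at least 2-fold higher than with nm23-H2 and 0 at least 2-fold lower, against 3.74% and 3.74% of all genes. These were SREBF1 (4.04-fold), TM7SF2 (2.97-fold), SCD (2.93-fold), DHCR7 (2.27-fold), INSIG1 (2.13-fold) and ACSL1 (2.08-fold). The median was 0.35 over the 27 genes and 0.08 over all, with 21 above 0 and 5 below, against 56.2% and 39.2%. On the deposited scale 3 genes passed 2-fold upwards and 0 downwards, against 2.16% and 6.21% of all genes, with an all-gene median of -0.07. INSIG1 was under 2-fold in this comparison under 4 of 10 alternatives. This comparison uses the same nm23-H1 and nm23-H2 arrays as those with vector and adds no independent evidence. With values below the floor set to it, the nm23-H2 value was the lowest of the 3 arrays for 19 of the 27 genes, against 39.6% of all measured genes, and the highest for 3. These shares too are of genes chosen with earlier results of these data known.

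**Figure D4:**
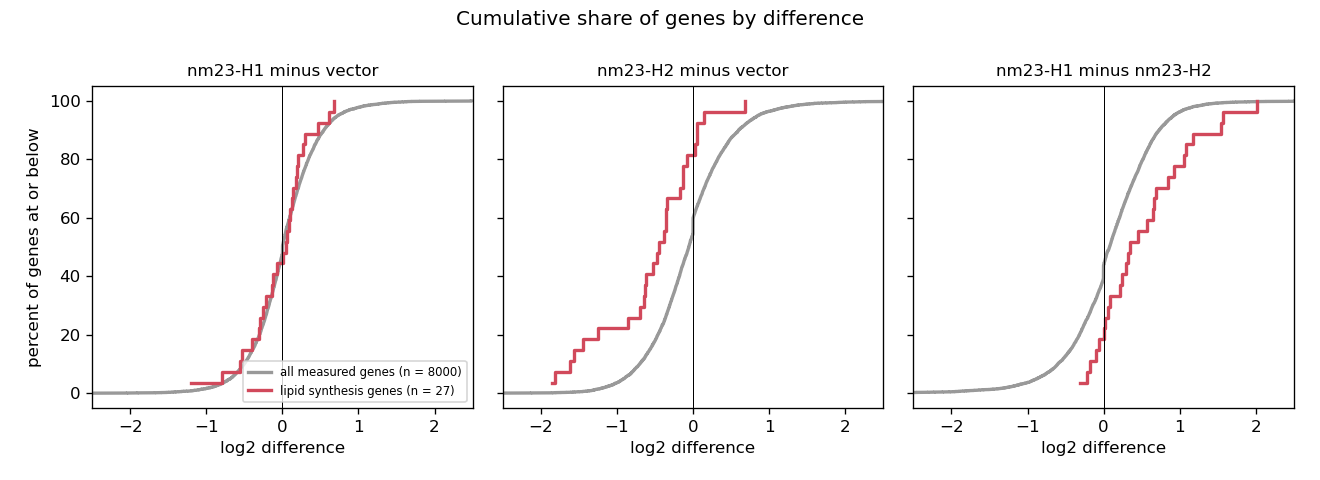
Cumulative percent of genes by log2 difference for the 3 comparisons, 1 array per group, over all 8000 measured genes (grey) and the 27 lipid synthesis genes (red), shown from -2.5 to 2.5. The red curve lies along the grey for nm23-H1 minus vector (median 0.05 against 0), to its left for nm23-H2 minus vector (-0.45 against -0.06) and to its right for nm23-H1 minus nm23-H2 (0.35 against 0.08). The 27 genes were chosen with earlier results of these data known.

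Related lipid genes were taken from lists of sterol transport, further synthesis steps and neighbouring pathways, and over all of them the median was 0.08 (log2) with nm23-H1 and -0.01 with nm23-H2. Of 60 listed genes of sterol transport, further synthesis steps, SREBP processing, glycerolipid synthesis and fatty acid oxidation, 47 had a probe set and 42 were measured. With nm23-H2, 0 were at least 2-fold lower than vector and 1 higher, and with nm23-H1, 1 was lower and 2 higher. As shares of the 42 these were 0% and 2.38% with nm23-H2 and 2.38% and 4.76% with nm23-H1, near the all-gene shares of 3.62%, 3.54%, 1.71% and 2.16%. The proteases and ubiquitin ligases that act on SREBP and its partners had a median of 0.08 (log2) with nm23-H1 and -0.0040 with nm23-H2 over 7 genes. The first protease gene, MBTPS1, differed by -0.44 and -0.13, but a further probe set gave 0.82 and 0.27, so its direction is uncertain. MBTPS2, the second, differed by -0.37 and -0.10. ERLIN1, a sterol-sensing protein of the endoplasmic reticulum, was 1.43-fold and 1.49-fold above vector, and its second probe set gave 1.61-fold and 1.08-fold. ERLIN2, of the same list, was 1.10-fold above vector with nm23-H1 and at least 1.79-fold below it with nm23-H2. The second ERLIN2 probe set was 1.28-fold and 1.39-fold below vector. Genes of sterol uptake, efflux and storage had medians of 0.10 and -0.02 over 10 genes. Among them ABCG1, a sterol exporter, gave 55.4, 67.1 and 118 units on the nm23-H1, nm23-H2 and vector arrays, 2.13-fold and 1.76-fold below vector. Its second probe set gave 1.98-fold and 1.38-fold, and 0 related genes were 2-fold lower with nm23-H1 on the deposited scale or with the floor at the 70th percentile.

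Further synthesis enzymes had medians of 0.08 with nm23-H1 and -0.0038 with nm23-H2 over 11 genes. HACD3, a dehydratase of fatty acid elongation, stood at 149 units with nm23-H1, 71.2 with nm23-H2 and 71.7 with vector, 2.08-fold above vector with nm23-H1 alone. LBR, which has sterol delta-14 reductase activity like TM7SF2, gave 67.0, 36.9 and 64.4 units, 1.75-fold lower with nm23-H2. In glycerolipid synthesis (medians 0.08 and -0.31 over 5 genes), DGAT1, which makes triglyceride, gave 99.0, 123 and 43.8 units. DGAT1 was low on the vector array, 2.26-fold and 2.80-fold above it with nm23-H1 and nm23-H2, by 1 probe set.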

How the data were processed

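One Affymetrix array per group covered 22283 probe sets. Linear intensity was deposited, made with MAS5 per the submitters' processing notes, and its version and scaling target are not given in the sources used here. Arrays were multiplied (1.03 for nm23-H1, 0.881 for nm23-H2, 1.11 for vector) to a common mean between the 2nd and 98th percentiles, the pooled median of 28.3 became the floor, and log2 was taken. The floor shortens differences of dim genes, so folds reaching it are bounds. Platform annotation, updated through RefSeq, gave 19071 probe sets 1 symbol, 1043 several and 2169 none. Each gene used 1 probe set, not _x_at if possible, then the brightest by mean log2. Differences of 2-fold (1 on the log2 scale) were counted. Named genes were those at 2-fold, the 2 largest others per role and up to 4 related genes per list at 2-fold, and further genes complete a role. Neighbours were the measured genes among 25 on either side. The members and lists were chosen with earlier results of these data known. Promoters and positions are RefSeq GRCh38.p14. The steps were tested on simulated data. Alternatives were other scalings (none, common median, quantile), other floors (25th or 70th percentile, or 16 added), other probe sets (mean of all, plain _at), 1.5-fold, genes above the floor on both arrays, leaving out nm23-H2, and the shorter sterol motif. Python 3.11.15, numpy 2.4.6, pandas 2.3.3 and matplotlib 3.10.9 were used.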

Additional observations from a re-analysis of the deposited data

How the results depend on the processing

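No paired analysis was possible because each group had 1 array. Under all alternatives run, none of the 7 synthesis genes at least 2-fold apart changed direction in the comparison where it was so, and SREBF1 and SCD kept 2-fold for nm23-H2 against both other arrays wherever they had a value. The other floors, the 1.5-fold threshold and the limit to genes above the floor on both arrays left the values of SREBF1 and SCD unchanged. The choice of probe sets also left SREBF1 unchanged. For nm23-H2 minus vector, the median was -0.13 as deposited, -0.54 with a common median, -0.36 averaging probe sets and -0.13 with plain _at probe sets. Plain _at probe sets left 1 gene at least 2-fold lower, against 3.42% of all genes. The deposited scale put 1 higher, against 7.92% of all genes. At 1.5-fold, 11 were lower and 1 higher, against 14.3% and 10.5% of all genes. For nm23-H1 minus vector, the median was 0.17 as deposited and 0.15 with plain _at probe sets. With the 70th percentile floor, 16 added, the mean of probe sets or plain _at probe sets, 0 genes were at least 2-fold lower. The all-gene shares lower in those settings were 1.17%, 1.45%, 1.16% and 1.55%. At 1.5-fold, 2 were lower and 2 higher, against 7.5% and 8.6% of all genes. For nm23-H1 minus nm23-H2, genes at least 2-fold higher numbered 3 as deposited, 3 with the 70th percentile floor and 2 with plain _at probe sets. The all-gene shares there were 2.16%, 2.24% and 3.62%. At 1.5-fold, 11 were higher, against 16.2% of all genes. The medians were 0.18 as deposited, 0.45 with a common median and 0.16 with plain _at probe sets. The shorter sterol core raised the share of promoters with a match from 7.69% to 53.8%. DHCR7, SC5D, TM7SF2 and INSIG1 each fell under 2-fold for nm23-H2 minus vector under 1 or 2 alternatives, between -0.53 and -0.99. Fewer genes had plain _at probe sets, and the 1.5-fold threshold counts more genes by definition. What caused the changes under the alternatives was not tested. Precision is limited by 1 array per group, and near the floor (MSMO1, INSIG2, FADS2, SC5D) signal over background limits it further.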

Other observations

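Among genes that burn fatty acids in mitochondria, the data show ACADVL and HADHA higher on the nm23-H2 array, and none at 2-fold. Of 11 listed genes of fatty acid oxidation, 9 were measured, 4 below and 5 above vector with nm23-H2, with medians of 0.11 for nm23-H1 minus vector and 0.17 for nm23-H2 minus vector. ACADVL, the very-long-chain acyl-CoA dehydrogenase, gave 298 units with nm23-H1, 413 with nm23-H2 and 227 with vector, 1.82-fold above vector with nm23-H2. HADHA, the alpha chain of the mitochondrial trifunctional protein, gave 298, 436 and 263 units, and its 3 probe sets placed nm23-H2 0.73, 0.56 and 0.64 above vector on the log2 scale. HADHB, its beta chain, was 0.10 below vector with nm23-H2, so the chains did not move alike. CPT1A, the entry enzyme of mitochondria, was 1.15-fold above vector with nm23-H2 by its brightest probe set, and its other probe sets above the floor lay between 0.40 below and 0.88 above vector.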
